A study of Mus musculus with 6 samples.

Results

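Bone resorption by osteoclasts depends on 3 sets of genes, and 10 genes of these sets were followed here in the stria vascularis of the mouse cochlea. The secreted enzymes were Mmp9, Acp5 and Ctsk, the acid secretion genes were Tcirg1, Clcn7 and Ostm1, and the regulators were Nfatc1, Itgb3, Tnfrsf11a and Tnfrsf11b. Every probe set whose gene symbol in the platform annotation was exactly one of these names was taken, which gave 10 of 18193 named genes and 20 of the 45037 probe sets that are not controls. A probe set is a group of short probes for 1 transcript, and its signal intensity is in arbitrary units. Total RNA of the stria, the epithelium of the lateral wall that pumps potassium into the endolymph, was measured on 6 arrays at postnatal day 10. The 3 heterozygous arrays (replicates 1, 3 and 5) came from mice with 1 working copy of Slc26a4, the gene of the anion exchanger pendrin, and the 3 knockout arrays (replicates 2, 4 and 6) from mice with none. All mice thus carried at least 1 disrupted copy, and wild-type mice were not analysed here. The labels name no strain, no allele and no number of animals per array, so the p-values measure only the spread between these samples, which may be technical.

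Osteoclasts are multinucleated cells of the monocyte lineage that dissolve bone. They seal off a patch of matrix through integrins, acidify it with a proton pump and a chloride transporter, and release proteases that cut the exposed collagen. Their formation is started when RANK ligand binds its receptor RANK, is carried out by the transcription factor NFATc1, and is held back by the decoy receptor osteoprotegerin. The cochlea lies in a bony capsule that is remodelled little, and osteoprotegerin is made in abundance in the inner ear. Several of these genes are not particular to osteoclasts, since lysosomes of many cells use the chloride transporter, macrophages make the acid phosphatase, fibroblasts make cathepsin K and neutrophils store Mmp9.

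The stretches of DNA at the starts of genes of the enzyme and acid secretion groups are shown to set the letters of osteoclast factors beside the expression values. RefSeq promoter windows of assembly GRCm38.p6, from 250 bases before to 50 bases after a start, were at hand for 6 of the 10 genes. Capitals mark the cores of binding motifs, read on both strands: GGAAA (NFAT), GAGGAA (PU.1), CACGTG (the E-box of the MITF and TFE family) and TGANTCA (AP-1). Where GGAAA and GAGGAA overlap, the letters are counted for both. The Ctsk window is chr3:95498960-95499259 on the plus strand. For Acp5, with 3 annotated starts, the window nearest to the 3′ end of the gene is shown, chr9:22130549-22130848 on the minus strand. For Clcn7 it is the first of 2, chr17:25133141-25133440 on the plus strand.
Ctsk: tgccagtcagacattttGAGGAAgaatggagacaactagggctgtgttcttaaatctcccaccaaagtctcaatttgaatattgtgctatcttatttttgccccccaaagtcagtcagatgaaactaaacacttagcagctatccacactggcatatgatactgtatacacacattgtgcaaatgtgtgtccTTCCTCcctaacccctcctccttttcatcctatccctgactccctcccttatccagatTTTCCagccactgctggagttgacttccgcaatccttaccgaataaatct
Acp5: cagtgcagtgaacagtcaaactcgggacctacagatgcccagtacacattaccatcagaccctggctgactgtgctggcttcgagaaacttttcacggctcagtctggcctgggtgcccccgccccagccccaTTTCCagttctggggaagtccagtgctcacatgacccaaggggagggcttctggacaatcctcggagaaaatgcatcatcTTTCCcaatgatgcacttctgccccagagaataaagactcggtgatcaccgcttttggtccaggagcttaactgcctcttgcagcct
Clcn7: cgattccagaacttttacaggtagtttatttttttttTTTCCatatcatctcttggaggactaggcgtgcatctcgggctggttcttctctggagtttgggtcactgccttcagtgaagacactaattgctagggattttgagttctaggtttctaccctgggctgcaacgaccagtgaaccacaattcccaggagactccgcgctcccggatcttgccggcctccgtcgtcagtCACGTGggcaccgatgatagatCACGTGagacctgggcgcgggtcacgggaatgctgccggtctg

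The Ctsk window held the NFAT core 1 time and the PU.1 core 2 times. The Acp5 window shown held the NFAT core 2 times, and each of the other Acp5 windows 1 time. The Clcn7 window held the NFAT core 1 time and the E-box 2 times, while the window of its other start held neither. The AP-1 motif was in none of the 11 windows of the 6 genes, and the windows of Ostm1 and Tnfrsf11a held none of the 4 motifs. Of the 3 windows of Tcirg1, whose groups overlapped in expression, 1 held the NFAT core 2 times, 1 the PU.1 core 2 times and 1 no motif. The NFAT core was present in 61.3% of all 32851 promoter windows, the PU.1 core in 28.3%, the AP-1 motif in 7.81% and the E-box in 7.15%. A match is a run of letters and not a shown binding site.

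The arrays had been scaled to one trimmed mean before deposit. The median signal was still higher on each knockout array (89.9, 105 and 88.8) than on each heterozygous one (82.3, 76.7 and 81.1). Dim probe sets may therefore read higher in knockout samples in part through this shift, which was not tested. Knockout replicate 4 stood apart, with a root mean square log2 difference to the other arrays of 0.72 on average, against 0.46 to 0.49 for the other 5. Slc26a4 was lower on each knockout array (75.5, 106 and 154) than on each heterozygous one (221, 248 and 1006), as labelled. Values were compared as log2(signal + 16), a scale that understates differences between dim values. Probe sets with a mean signal under 46.3, the 40th percentile, were left out of the test. Of the 20 member probe sets 11 were tested and 9 lay under this filter, among them both probe sets of Tnfrsf11a.

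The 3 enzymes stood higher on every knockout array than on any heterozygous array, and none passed the test over all probe sets. Mmp9 is a gelatinase that cuts denatured collagen. On probe set 1416298_at its signal was 18.4, 20.4 and 59.9 on heterozygous replicates 1, 3 and 5, and 89.9, 147 and 511 on knockout replicates 2, 4 and 6. The heterozygous values were dim, with a mean of 32.9 ± 23.4 (SD, n = 3) below the filter, so the probe set was tested only because of its knockout values, whose mean was 249 ± 229 (SD, n = 3). The log2 difference was 2.19 ± 0.55 (SE), with a 95% interval from 0.96 to 3.42 and a limma adjusted p of 0.371. The other Mmp9 probe set, 1448291_at, lay under the filter, at 13.1, 3.74 and 5.75 in heterozygous and 39.3, 6.45 and 132 in knockout samples. Its groups overlapped through knockout replicate 4, and replicate 6 was again the highest array.

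Acp5 encodes tartrate-resistant acid phosphatase, the stain by which osteoclasts are recognised. Its only probe set read 71.0, 40.1 and 51.0 on the heterozygous arrays and 102, 96.2 and 411 on the knockout arrays. Knockout replicates 2 and 4 lay above the heterozygous range and close to each other, while replicate 6 stood far above it. The log2 difference was 1.37 ± 0.47 (SE; 95% interval from 0.31 to 2.43; limma adjusted p = 0.372). Without knockout replicate 6 it was 0.74.

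Ctsk encodes cathepsin K, the cysteine protease that degrades collagen in the acid space under the osteoclast. Its probe set read 391, 290 and 316 in heterozygous samples and 685, 406 and 752 in knockout samples. Knockout replicate 4 lay only a little above heterozygous replicate 1, and the other knockout arrays were well clear of the heterozygous range. The log2 difference was 0.82 ± 0.25 (SE; 95% interval from 0.26 to 1.38; limma adjusted p = 0.371), and it was 1.09 without knockout replicate 4. The intervals are for single probe sets and are not adjusted for the number tested. For each of the 3 enzymes p was 0.1 by exact permutation of the array labels (two-sided), the smallest value that 3 against 3 arrays allow. In whole tissue, more cells of a type and more RNA per cell cannot be told apart.

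**Figure D1:**
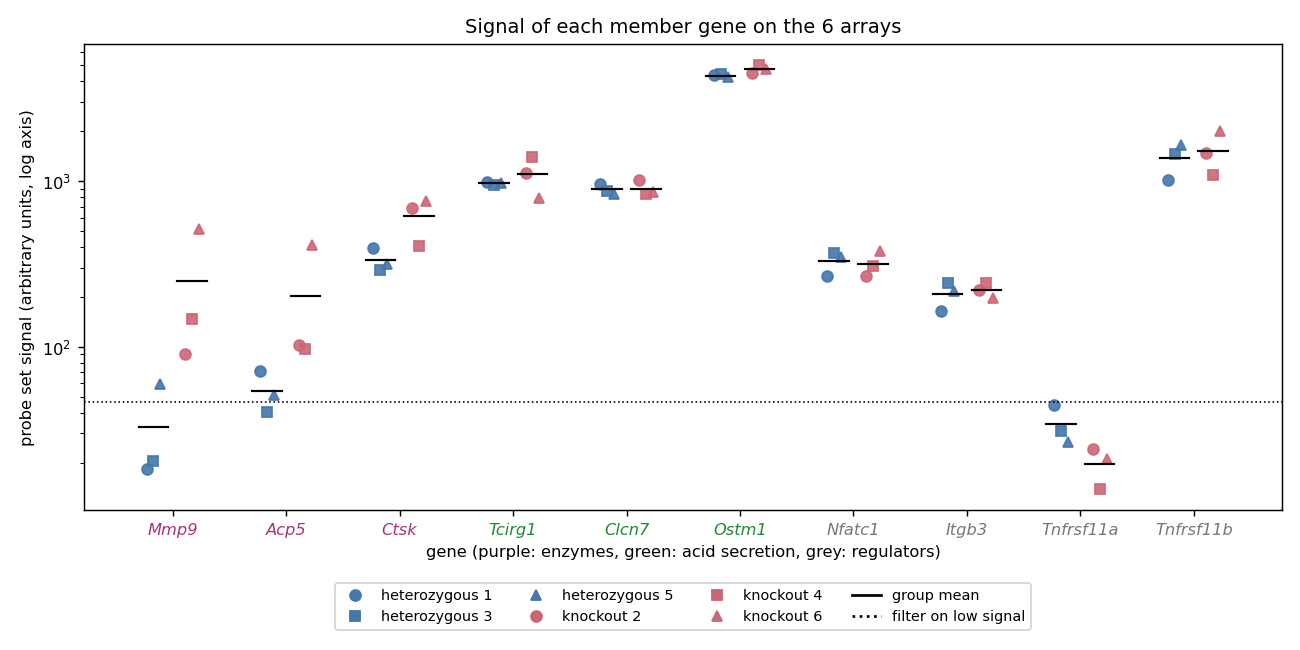
Probe set signal (log axis, arbitrary units) of the brightest probe set of each member gene on the 3 heterozygous (blue) and 3 knockout (red) arrays, with bars at the group means and a dotted line at the filter of 46.3. The knockout points of Mmp9, Acp5 and Ctsk lie above all heterozygous points, with knockout replicate 6 highest in each, while the acid secretion genes and regulators lie closer together, and levels of different genes are not comparable.

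The acid secretion genes showed small differences on their brightest probe sets. Tcirg1 encodes a subunit of the osteoclast proton pump. It read 985, 944 and 968 in heterozygous and 1117, 1389 and 793 in knockout samples, so the knockout arrays spread to both sides of a tight heterozygous group. The log2 difference was 0.15, with a 95% interval from -0.30 to 0.60, and it turned to -0.04 without knockout replicate 4. Ostm1, the partner protein that stabilises the chloride transporter, gave 4339, 4386 and 4232 against 4463, 4990 and 4724. Its groups did not overlap, but the log2 difference was only 0.13 ± 0.09 (SE; 95% interval from -0.07 to 0.32; limma adjusted p = 0.606).

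Clcn7 encodes the chloride-proton exchanger of lysosomes and of the resorbing membrane, and its 3 probe sets disagreed. The brightest, 1452702_at, read 960, 869 and 834 in heterozygous and 1006, 835 and 855 in knockout samples, with overlapping groups and a log2 difference of 0.02 (95% interval from -0.33 to 0.36). The dim probe set 1425821_at read 36.4, 26.7 and 58.2 against 82.4, 100.7 and 58.9. There the groups were separated by less than 1 unit of signal, between heterozygous replicate 5 and knockout replicate 6, and the log2 difference was 0.79 ± 0.30 (SE; limma adjusted p = 0.377). Its heterozygous mean of 40.4 was below the filter, so it too was tested because of its knockout values. With quantile normalisation the log2 difference of 1425821_at was 0.60, with an unadjusted limma p of 0.062. The third, 1450408_at, lay under the filter with a log2 difference of 0.10.

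The regulators went in both directions. Nfatc1, the transcription factor that switches on the enzyme genes in osteoclast precursors, read 268, 368 and 349 in heterozygous and 266, 308 and 377 in knockout samples on its brightest probe set, 1417621_at. The groups overlapped fully, and the log2 difference of -0.05 had a 95% interval from -0.53 to 0.43. A further tested probe set, 1428479_at, gave -0.33 (95% interval from -1.01 to 0.34), with the lowest value, 143, on knockout replicate 4, and without that array it gave 0.03. The remaining 3 Nfatc1 probe sets lay under the filter, with log2 differences from -0.29 to 0.04.

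Itgb3, the beta chain of the vitronectin receptor with which osteoclasts hold on to bone and which platelets also carry, read 165, 242 and 216 in heterozygous and 219, 242 and 198 in knockout samples. All knockout values lay within the heterozygous range except for knockout replicate 4, which exceeded its top by less than 1 unit. The log2 difference was 0.09 (95% interval from -0.41 to 0.58). Its other probe set was under the filter, at -0.21.

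Tnfrsf11a, which encodes RANK, was dim on both of its probe sets. On 1430259_at it read 44.4, 31.1 and 26.7 in heterozygous and 24.2, 13.8 and 21.0 in knockout samples. Every knockout value lay below every heterozygous one there, with a log2 difference of -0.48 and a 95% interval from -1.04 to 0.07 that includes 0, from the fit without the filter. Of the named probe sets under the filter, 4.6% had all knockout arrays below all heterozygous arrays. On 1419214_at the values were 12.4, 19.0 and 9.18 against 12.1, 23.3 and 18.2, with overlapping groups and a difference of 0.20. Tnfrsf11b, which encodes osteoprotegerin, was well above the filter on 1449033_at, at 1010, 1457 and 1656 in heterozygous and 1468, 1092 and 2012 in knockout samples. The groups overlapped (log2 difference 0.13, 95% interval from -0.41 to 0.68), and the sign turned to -0.09 without knockout replicate 6. Its dim probe set gave -0.31.

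**Figure D2:**
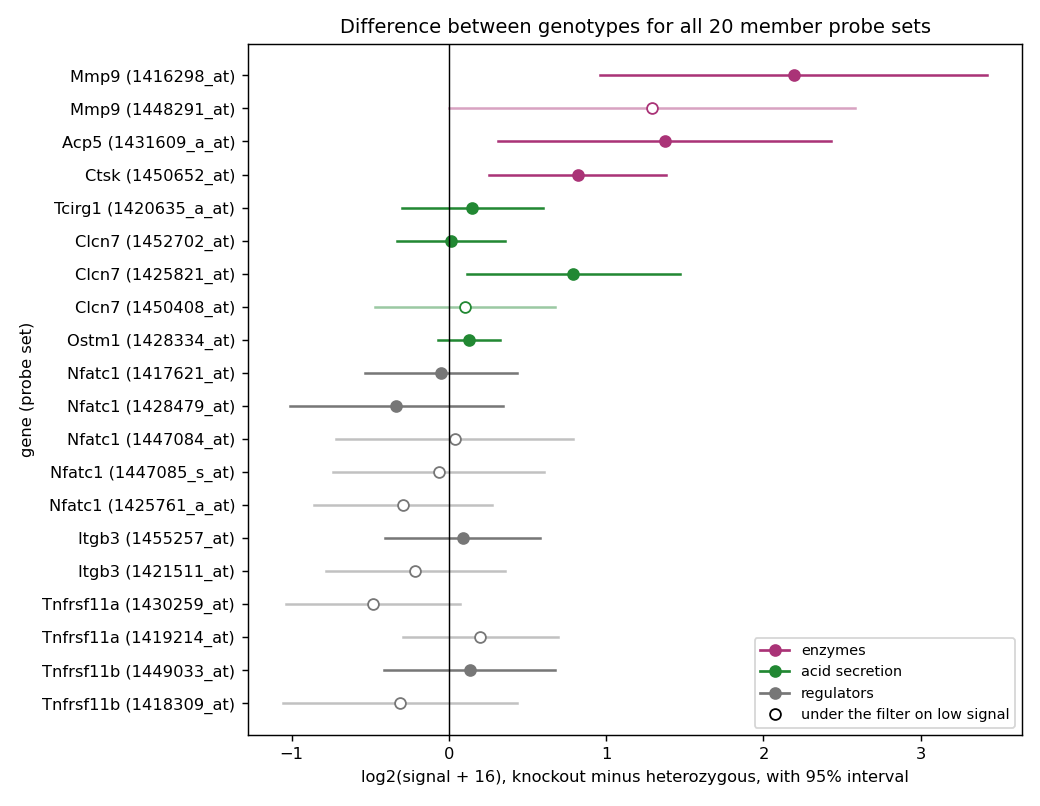
Log2 difference, knockout minus heterozygous, with its 95% interval for all 20 member probe sets (filled circles tested, open circles under the filter and taken from the fit without it). The enzyme probe sets lie to the right of 0, the largest being 2.19 for Mmp9, while the regulator probe sets lie between -0.48 and 0.20 with intervals that include 0.

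Counted over the members, limma adjusted p was under 0.05 for 0 of 11 tested probe sets, against 0.0037% of all 27022 tested. Before adjustment 4 of 11 had p under 0.05, all higher in knockout samples, namely those of Mmp9, Acp5 and Ctsk and the dim one of Clcn7. Of all tested probe sets 11.7% had such a p and 9.2% were also higher, and of those with 1 gene symbol 5.36% were higher. Every knockout array was above every heterozygous array for 5 of the 11, these 4 and Ostm1, against 11.2% of all tested probe sets and 7.85% of the named ones. Counted by gene on the brightest probe set, 3 of 9 tested genes, the enzymes, were higher with an unadjusted p under 0.05, against 3.21% of 12421 genes. Mmp9 and the Clcn7 probe set entered the test through the group in which they are high, so these counts describe the members and are no support.

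The enzymes were then set against the other members. The median log2 difference was 1.37 over the 3 enzymes, 0.13 over the 3 acid secretion genes and 0.09 over the 3 tested regulators, against -0.04 over all 12421 genes. On each array the mean log2 deviation of the enzymes from their heterozygous mean was set against that of the regulators. The enzymes stood at 0.06, -0.27 and 0.21 on the heterozygous arrays and at 1.01, 0.94 and 2.44 on the knockout arrays. The regulators stood at -0.32, 0.17 and 0.15, and at -0.02, -0.05 and 0.24. Enzymes minus regulators was thus 0.38, -0.43 and 0.06 in heterozygous and 1.03, 0.99 and 2.20 in knockout samples. The knockout values lay above the heterozygous ones on all 3 arrays, with replicate 6 more than 1 log2 unit above the other knockout arrays. No test was made of this contrast, since the genes were chosen with their values known.

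**Figure D3:**
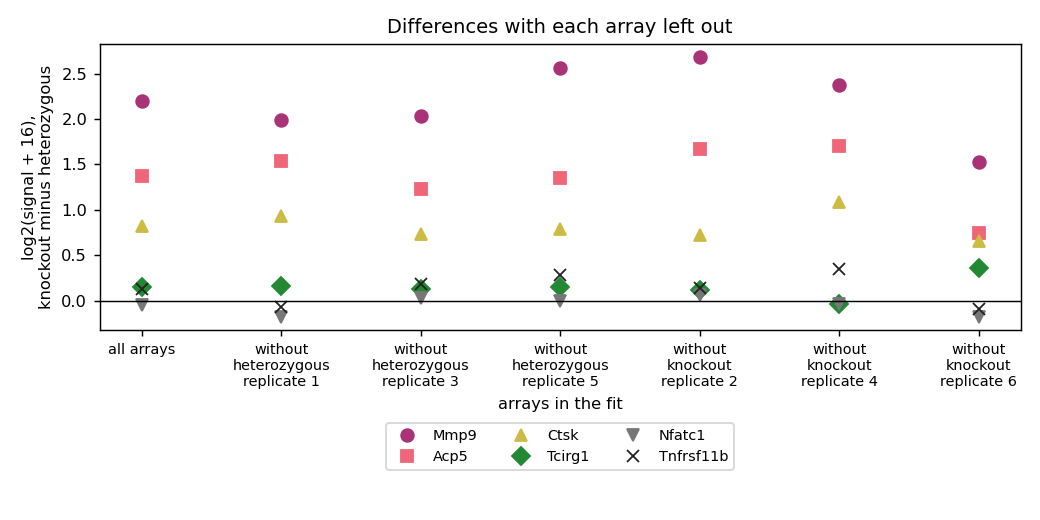
Log2 difference, knockout minus heterozygous, for 6 member genes with all arrays and with each array left out in turn. Mmp9, Acp5 and Ctsk stay above 0 throughout and are lowest without knockout replicate 6 (1.52, 0.74 and 0.65), while Tcirg1, Nfatc1 and Tnfrsf11b cross 0.

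The difference between the medians of enzymes and regulators was 1.29. It was 0.83 without knockout replicate 6 and 1.69 without knockout replicate 4. Without knockout replicate 4, the array that stood apart, the enzyme values were 2.37 for Mmp9, 1.71 for Acp5 and 1.09 for Ctsk, each larger than with it. Without knockout replicate 6 the limma adjusted p was 0.147 for Mmp9, 0.225 for Acp5 and 0.234 for Ctsk. The unadjusted limma p nevertheless rose, from 0.0027 to 0.0056 for Mmp9, 0.016 to 0.036 for Acp5 and 0.0089 to 0.040 for Ctsk. Over all probe sets, 5259 had an unadjusted p under 0.05 in that fit, against 3154 with all arrays. The lower adjusted p is thus no stronger result for the enzymes. Over all alternative fits the adjusted p ran from 0.147 to 0.869 for Mmp9, 0.225 to 0.869 for Acp5 and 0.142 to 0.869 for Ctsk.

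Other genes of osteoclast formation and function were read from 5 lists of 94 genes, of which 90 were on the array and 78 were tested. None had a limma adjusted p under 0.05, against 0.00805% of all genes. Before adjustment, 2 were higher and 1 lower with p under 0.05, where 6.44% of all genes had such a p in either direction and 3.23% were lower. Of the 2 higher genes, Adam12 was tested only because of its knockout values. The median log2 difference was -0.02. Of the ligands and receptors, Csf1, the growth factor of the monocyte lineage, read 196, 186 and 172 in heterozygous and 262, 256 and 213 in knockout samples (log2 difference 0.37, limma adjusted p = 0.511). Every knockout value was above the heterozygous range. The Fc receptor gene Fcgr3 gave 0.29 and the tumour necrosis factor receptor gene Tnfrsf1a gave -0.18, and both turned in sign when a single knockout array was left out.

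The signalling list had 26 tested genes with a median log2 difference of -0.04, and none reached the unadjusted p. Its members with the smallest p were Rela, a subunit of NF-kappaB, at -0.36, the repressor gene Bcl6 at -0.35, and the kinase gene Tec at 0.33. In the list of fusion, adhesion and cytoskeleton (16 tested, median 0.02) Adam12, a membrane metalloproteinase, read 27.5, 20.8 and 43.1 against 56.1, 45.3 and 87.6. Its knockout values lay above its heterozygous values, the heterozygous mean of 30.5 was below the filter, and the log2 difference was 0.76 (limma adjusted p = 0.395). Itgav, the partner chain of Itgb3, gave 0.20 and Vav3, an exchange factor needed for the osteoclast cytoskeleton, -0.73.

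In the list of acid transport and vesicles (17 tested, median -0.10) Rab3d, a small GTPase of secretory vesicles, read 309, 279 and 246 in heterozygous and 197, 168 and 152 in knockout samples. It was lower on every knockout array (log2 difference -0.64, limma adjusted p = 0.371). Snx10, a sorting nexin needed for resorption, gave -0.20, and the lysosomal membrane gene Lamp2 0.14. Among 10 tested proteases and inhibitors (median -0.02) Timp3, an inhibitor of metalloproteinases, read 4063, 4713 and 4562 against 5259, 5675 and 5859. All knockout arrays were above all heterozygous arrays, with a log2 difference of 0.33 ± 0.09 (SE, limma adjusted p = 0.371). The lysosomal cathepsin genes Ctsd and Ctss gave 0.19 and -0.44.

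In the wider lists 12 genes had every probe set under the filter in their mean over all arrays, among them Tnfsf11 (RANK ligand), Calcr (the calcitonin receptor) and the genes described next, which were picked after their values were seen. Atp6v0d2, a proton pump subunit enriched in osteoclasts, read 5.81, 9.44 and 1.80 in heterozygous and 24.1, 36.2 and 98.5 in knockout samples on its brighter probe set. The order of the knockout arrays was that of Mmp9, but the log2 difference of 1.53 did not pass in the fit without the filter (limma adjusted p = 0.497). Its other probe set read 4.84, 1.79 and 8.54 against 0.773, 1.12 and 31.5, with overlapping groups.

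Dcstamp and Ocstamp, membrane proteins that precursors need in order to fuse, were dimmer still. Dcstamp read 7.69, 4.33 and 12.6 in heterozygous and 18.2, 14.6 and 35.7 in knockout samples, and Ocstamp 1.83, 4.32 and 2.31 against 13.5, 4.70 and 9.25. Oscar, a collagen receptor of osteoclasts, read 24.4, 24.4 and 20.9 against 33.8, 46.0 and 35.6 on the brighter of 2 probe sets. The other Oscar probe set read 2.55, 4.02 and 1.37 against 0.741, 0.769 and 5.67, with overlapping groups. Every knockout value lay above every heterozygous value on 4 of the 16 probe sets of the 12 genes, against 7.4% of the 12086 named probe sets under the filter. These 4 were the probe sets of Dcstamp and Ocstamp and the brighter ones of Atp6v0d2 and Oscar. The median log2 difference was 0.39 over the 16 and 0.03 over the 12086. Tnfsf11 read 1.16, 2.43 and 16.8 against 0.418, 26.7 and 31.5, and Calcr 12.2, 0.248 and 7.34 against 9.63, 16.7 and 17.6, and in both the groups overlapped. Values this far under the filter were not shown to be above background, since no detection calls were used here.

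**Figure D4:**
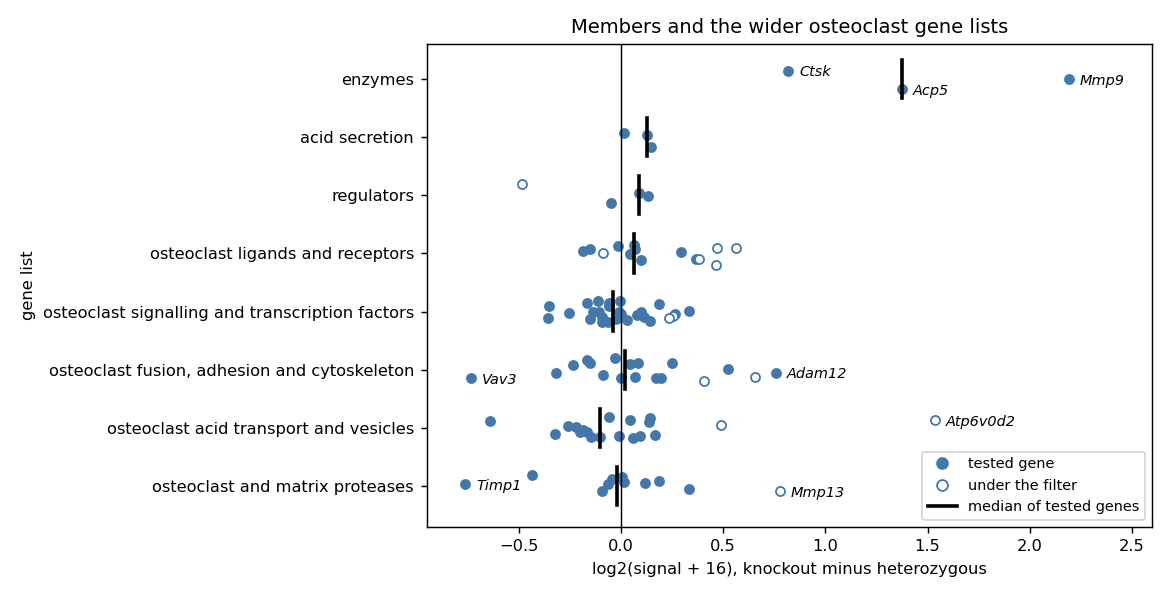
Log2 difference, knockout minus heterozygous, for each gene of the 3 member groups and the 5 wider lists (filled circles tested, open circles under the filter, black bars the median of tested genes). The enzyme median of 1.37 lies to the right of the list medians, which run from -0.10 to 0.06, and Atp6v0d2 is the gene outside the member groups that lies farthest to the right.

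Markers of other cells that could hold these transcripts did not follow one pattern, and their part in the enzyme values was not tested. The osteoblast and osteocyte list had 9 tested genes of 12 on the array, with 8 higher, 6 of them at an unadjusted p under 0.05, and a median log2 difference of 0.93. Of all 12421 genes 43.1% were higher, and 3.21% were higher with such a p. Its summed signal ran from 6089 to 12816 in heterozygous and from 12765 to 18848 in knockout samples. The genes with the smallest p were Dmp1 (1.11), Ibsp (1.34) and Phex (1.62), all of mineralising cells. The mean deviation of the whole list was 0.39, 1.14 and 1.13 on knockout replicates 2, 4 and 6, beside 1.01, 0.94 and 2.44 for the enzymes. Ctsk alone stood at 1.02, 0.29 and 1.15, and a Dmp1 probe set was the second nearest profile to Mmp9 among all named probe sets, as described further on. Cartilage genes had a median of 0.31 over 8 tested genes of 11, with summed signals from 23350 to 30436 and from 31786 to 34939, and Col2a1, the main collagen of cartilage, gave 0.39.

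Macrophage genes had a median of 0.04 over 18 tested genes of 20, with 11 higher, and summed signals from 10645 to 14037 in heterozygous and from 10594 to 15531 in knockout samples. Cd68 (0.48) and Cd14 (0.51), both of monocytes and macrophages, and Lgals3 (-0.71) had the smallest p in that list. On knockout replicates 2, 4 and 6 the list's mean deviation was 0.40, -0.41 and 0.16. Replicate 4 was the lowest knockout array there, as it was for Acp5 and Ctsk but not for Mmp9. The macrophage list was highest on replicate 2 and all 3 enzymes were highest on replicate 6, and a contribution of macrophages was not tested. Granulocyte genes, listed because neutrophils store Mmp9, had 5 tested of 12 on the array, all with a difference below 0 and none at an unadjusted p under 0.05, and a median of -0.72. Their summed signals ran from 1158 to 3915 and from 371 to 2006. Ngp, a neutrophil granule protein, gave -1.26, with 5.18 on knockout replicate 4, and the defining genes Elane, Mpo and Cxcr2 were under the filter. Mpo read 33.4, 28.3 and 49.9 in heterozygous and 0.838, 12.4 and 5.62 in knockout samples. Every knockout value of Mpo lay below every heterozygous one (log2 difference -1.27, limma adjusted p = 0.497 in the fit without the filter). The groups of Elane and of Cxcr2 overlapped. For the enzyme Mmp9 the array with most granulocyte signal, heterozygous replicate 5, was the highest heterozygous one. On knockout replicates 2, 4 and 6 the summed granulocyte signals were 2006, 371 and 1620, and Mmp9 read 89.9, 147 and 511. The largest parts of the sum on replicate 2 were S100a9 (1033) and S100a8 (672). Whether granulocytes contributed to the Mmp9 signal was not tested.

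Platelet genes, relevant to Itgb3, had 2 tested of 8 on the array, with summed signals from 552 to 727 and from 566 to 1069. Pf4, a platelet chemokine, gave 0.24, and Itga2b, the platelet partner of Itgb3, was under the filter. Endothelial genes had a median of -0.29 over 11 tested, with summed signals from 7416 to 12568 and from 3778 to 11284, the lowest on knockout replicate 4. The genes with the smallest p there were Tek (-0.75), Emcn (-0.95) and Kdr (0.32). Every deposited value was above 0, so a value above 0 does not show that a marker was expressed. Of the tissue's own cells, marginal cell genes had a median of -0.03 over 7 genes, basal cell genes 0.01 over 5 and intermediate cell genes -0.11 over 11. Single genes ran from -0.47 to 0.18, from -0.17 to 0.16 and from -1.25 to 0.15 in these lists. The lowest was Trpm1 of the intermediate cell list (limma adjusted p = 0.155). The medians were -0.20 over 9 pericyte and smooth muscle genes and 0.08 over 10 fibrocyte genes. Single genes there ran from -1.63 to 0.16 and from -1.61 to 0.56.

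**Figure D5:**
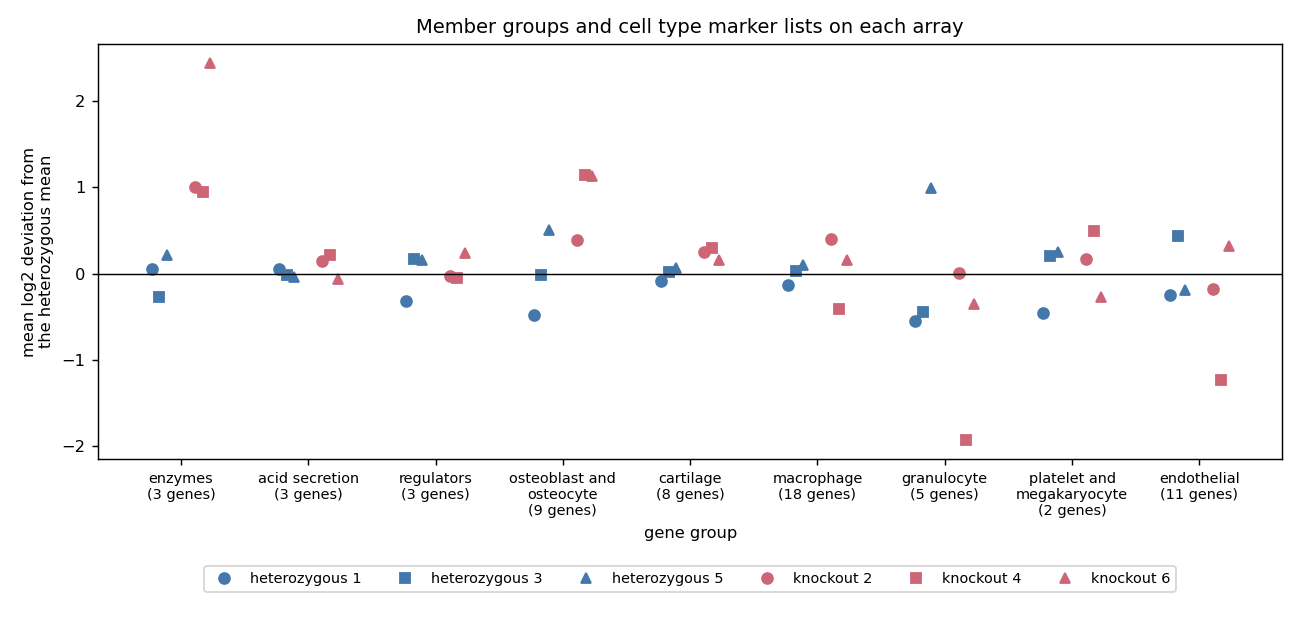
Mean log2 deviation from the heterozygous mean on each of the 6 arrays for the 3 member groups and 6 cell type marker lists, over tested genes. The knockout points of the enzymes (0.94 to 2.44), the osteoblast list (0.39 to 1.14) and the cartilage list (0.16 to 0.30) lie above 0. In the osteoblast list the groups overlap, with heterozygous replicate 5 at 0.50. The acid secretion and regulator points lie between -0.32 and 0.24, and knockout replicate 4 is lowest in the macrophage, granulocyte and endothelial lists.

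The profile of each enzyme over the 6 arrays was also compared with all 22859 named probe sets tested, by the root mean square difference of log2 values after centring each probe set on its mean. Nearest to Mmp9 was a probe set of Tfap2c, a transcription factor of the AP-2 family, at 0.26, where Mmp9 itself varied by 1.35 around its mean. It read 76.2, 107 and 149 in heterozygous and 377, 504 and 1372 in knockout samples, so that knockout replicate 6 was again the highest (log2 difference 2.41, limma adjusted p = 0.265). A probe set of Dmp1 and one of Tnmd, which encodes a protein of tendons and ligaments, followed at 0.51 and 0.54.

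A second probe set of Tfap2c was nearest to Acp5, at 0.24, with 40.1, 33.5 and 37.4 against 78.1, 103 and 270. Its knockout replicate 6 was far above the other knockout arrays, as for Acp5. The tight junction gene Cldn10 and Sgo2a, a protector of chromosome cohesion, followed at 0.49 and 0.53. For Ctsk the nearest were Pcolce, an enhancer of procollagen processing, at 0.18, then Cpsf4l and the solute carrier gene Slc43a3, both at 0.19. Pcolce read 1919, 1562 and 1931 against 3494, 2495 and 3134, with knockout replicate 4 lowest among the knockout arrays as for Ctsk. The distance between Mmp9 and Acp5 was 0.63, with 6 named probe sets nearer to Mmp9 and 22 nearer to Acp5. Ctsk lay at 1.03 from Mmp9, and 101 named probe sets were nearer to Mmp9 while 22675 were nearer to Ctsk. It lay at 0.58 from Acp5, with 9 nearer to Acp5 and 14240 nearer to Ctsk. Ctsk itself varied by only 0.51 around its mean, less than either distance. This measure depends on the size of the variation as well as on its shape. The counts nearer to Ctsk therefore do not show that its pattern over the arrays was unlike that of Mmp9 or Acp5.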

How the data were processed

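Per the submitters' processing notes, GCOS, the software of the array's maker, made the probe set signals, and its release is not given in the sources used here. Signal intensity on a linear scale fills the deposited table, with every value above 0, and the 2% trimmed mean of each array was 500.002. Genotype and replicate number came from the sample titles. After 64 control probe sets were left out, signals were taken as log2(signal + 16), and those with a mean under the 40th percentile (46.3) were removed, which left 27022. The test was limma 3.58.1 (R 4.3.3; lmFit and eBayes with trend), two-sided, adjusted by Benjamini-Hochberg over the 27022 with a threshold of 0.05, and it was tested on simulated data. A gene was represented by its brightest tested probe set. Probe sets under the filter took their values from a fit without it. Of 45037 probe sets, 34945 had 1 gene symbol, 932 several and 9160 none, and 34741 of the first matched a RefSeq gene.

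The members and gene lists were chosen with earlier results of these data known. The text names every member, up to 3 genes per list by smallest p, and the 3 nearest profiles of each enzyme. Other named genes were chosen after their values were seen. Alternatives changed the offset (1 or 64), the scaling (quantile or median), the filter (none or the 60th percentile), the variance model (untrended or robust) and the probe sets per gene (1, or their mean), or left out each array. The number of arrays limits the precision. Figures were drawn with matplotlib 3.10.9.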

Additional observations from a re-analysis of the deposited data

How the results depend on the processing

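The sample titles number the arrays in one run over both genotypes and do not say whether any were paired, so no paired analysis was made. No member and no gene of the wider lists had an adjusted p under 0.05 in any alternative fitted, and Mmp9, Acp5 and Ctsk kept their direction in each alternative that tested them. The 60th percentile filter removed Mmp9 and Acp5, and the difference between enzymes and regulators, Ctsk alone against the regulators, was then 0.73. Offsets of 1 and 64 gave 1.49 and 0.92. Member probe sets at an unadjusted p under 0.05 numbered 1 under the 60th percentile filter and 2 to 4 with an array left out (2 without heterozygous replicate 3). Over all probe sets, the count with an adjusted p under 0.05 was 3 with quantile normalisation, 0 with no filter or the 60th percentile filter, 11 with 1 probe set per gene, and 0 to 13 with an array left out (13 without knockout replicate 4). The count at an unadjusted p under 0.05 was 1588 with the 60th percentile filter, 900 with 1 probe set per gene, and 1429 to 5259 with an array left out, highest without knockout replicate 6. In the wider lists that count was 6 with no filter, 5 with no variance trend or 1 probe set per gene, and 3 to 14 with an array left out, again highest without knockout replicate 6.

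Some small log2 differences turned in sign when 1 array was left out. Their ranges were -0.036 (without knockout replicate 4) to 0.36 for Tcirg1, -0.067 (without knockout replicate 2) to 0.072 for Clcn7, and -0.18 to 0.063 (without knockout replicate 2) for Nfatc1. They were -0.57 to 0.028 (without knockout replicate 4) for the second Nfatc1 probe set, -0.058 (without heterozygous replicate 1) to 0.20 for Itgb3, and -0.087 (without knockout replicate 6) to 0.35 for Tnfrsf11b. In the lists they were -0.019 (without knockout replicate 2) to 0.62 for Fcgr3, -0.34 to 0.0044 (without knockout replicate 4) for Tnfrsf1a, and -0.19 (without knockout replicate 2) to 0.47 for Pf4. Median centring gave -0.020 for Clcn7, and quantile normalisation gave -0.024 for Itgb3. The cause was not tested.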
